A study of Mus musculus with 14 samples.

Results

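The genes encoding the ETS factors PU.1 (Spi1) and Spi-B (Spib) and the interferon regulatory factors IRF4 (Irf4) and IRF8 (Irf8) were followed across all 7 groups of a microarray study of mouse pre-B cells. They are 4 of the 19938 genes measured, chosen as the probe sets annotated with a single symbol among these names, with the brightest probe set kept where a gene had several. Each of the 4 genes had exactly 1 probe set.

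The study asked which genes respond to Ikaros and to interleukin-7 (IL-7) in BH1, a mouse pre-B cell line that lacks Ikaros. All 14 arrays came from BH1 cells carrying a retrovirus for the survival factor Bcl2 and another for Ikaros fused to the estrogen receptor (Ik1ER), sorted for both. 4-hydroxytamoxifen (4OHT, 100 nM) is the ligand that switches the fusion protein on, and IL-7 was supplied as 8% conditioned medium. The groups with IL-7 withdrawal had none of this medium, so loss of IL-7 and loss of anything else in it cannot be told apart. Each group held 1 array from each of 2 independent experiments. The starting cells were taken at time 0, with IL-7 in the medium and without 4OHT. At 6 h there were cells with 4OHT and IL-7 and cells with 4OHT after IL-7 withdrawal. At 24 h there were cells with IL-7 alone, with IL-7 and 4OHT, with IL-7 withdrawal alone (no 4OHT), and with both treatments, 4OHT and withdrawal. There was no 6 h group without 4OHT, so 4OHT and 6 h of culture cannot be told apart at that time. None of the groups lacked the fusion protein, so the response to active Ikaros and any response to 4OHT itself cannot be told apart. All groups share 1 line and both transgenes.

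PU.1 and Spi-B are closely related ETS factors that bind the same purine-rich sites and share many target genes in B cells. IRF4 and IRF8 bind DNA weakly alone and are recruited by PU.1 or Spi-B to ETS-IRF composite elements, first described in the immunoglobulin light chain enhancers. In pre-B cells IRF4 and IRF8 act redundantly in the step from cycling, IL-7-dependent cells to resting cells that rearrange the light chain genes.

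Values are log2 intensities, and differences are log2 differences ± SE from one limma fit with n = 2 arrays per group, called where the adjusted p (Benjamini-Hochberg, all genes) was under 0.05. All values of the 4 genes lay between 9.68 and 12.66, above the medians of the arrays, which ran from 7.23 to 7.43. Over all genes, both arrays of each group correlated closely (Pearson's r 0.9968 to 0.9982). The levels are not comparable between genes, since probe sets differ in brightness. In cultures measured as bulk RNA, more cells with a transcript and more transcript per cell cannot be told apart.

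Spib had the largest range of the 4 genes. It read 10.14 and 10.40 at time 0 in experiments 1 and 2, and 9.68 and 9.69 after 24 h with IL-7 alone. With 4OHT added to IL-7 for 24 h it read 12.20 and 12.18. Without IL-7 it read 10.47 and 10.72 in the absence of 4OHT and 12.66 and 12.65 in its presence. The 4 arrays with 4OHT at 24 h therefore all lay above every other array for Spib, and the arrays with both treatments lay highest.

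The 6 h arrays were intermediate for Spib, at 10.72 and 10.85 with 4OHT and IL-7 and at 11.43 and 11.49 with 4OHT and no IL-7. At both times the arrays without IL-7 lay above those with IL-7 under the same 4OHT condition, with no overlap. The stretch of 250 bases upstream of the Spib transcription start, from RefSeq on GRCm38.p6 (chr7:44532072-44532321, minus strand), is shown because Spib moved most of the 4.

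Spib promoter: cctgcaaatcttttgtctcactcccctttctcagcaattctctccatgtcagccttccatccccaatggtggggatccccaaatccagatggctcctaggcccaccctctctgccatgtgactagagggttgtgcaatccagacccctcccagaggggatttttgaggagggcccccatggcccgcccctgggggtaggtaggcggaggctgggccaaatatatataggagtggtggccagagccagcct

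This window held none of 6 short motifs searched on both strands: the Ikaros core TGGGAA, the ETS-IRF core GGAANNGAA, the interferon response core GAAANNGAA, the STAT5-type TTCNNNGAA, the PU.1-type GAGGAAGT and the E-box CACGTG. The TGGGAA core occurs in 21.6% of 32851 RefSeq promoter windows of the same length. A missing match says only that these letters are not in this window.

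**Figure D1:**
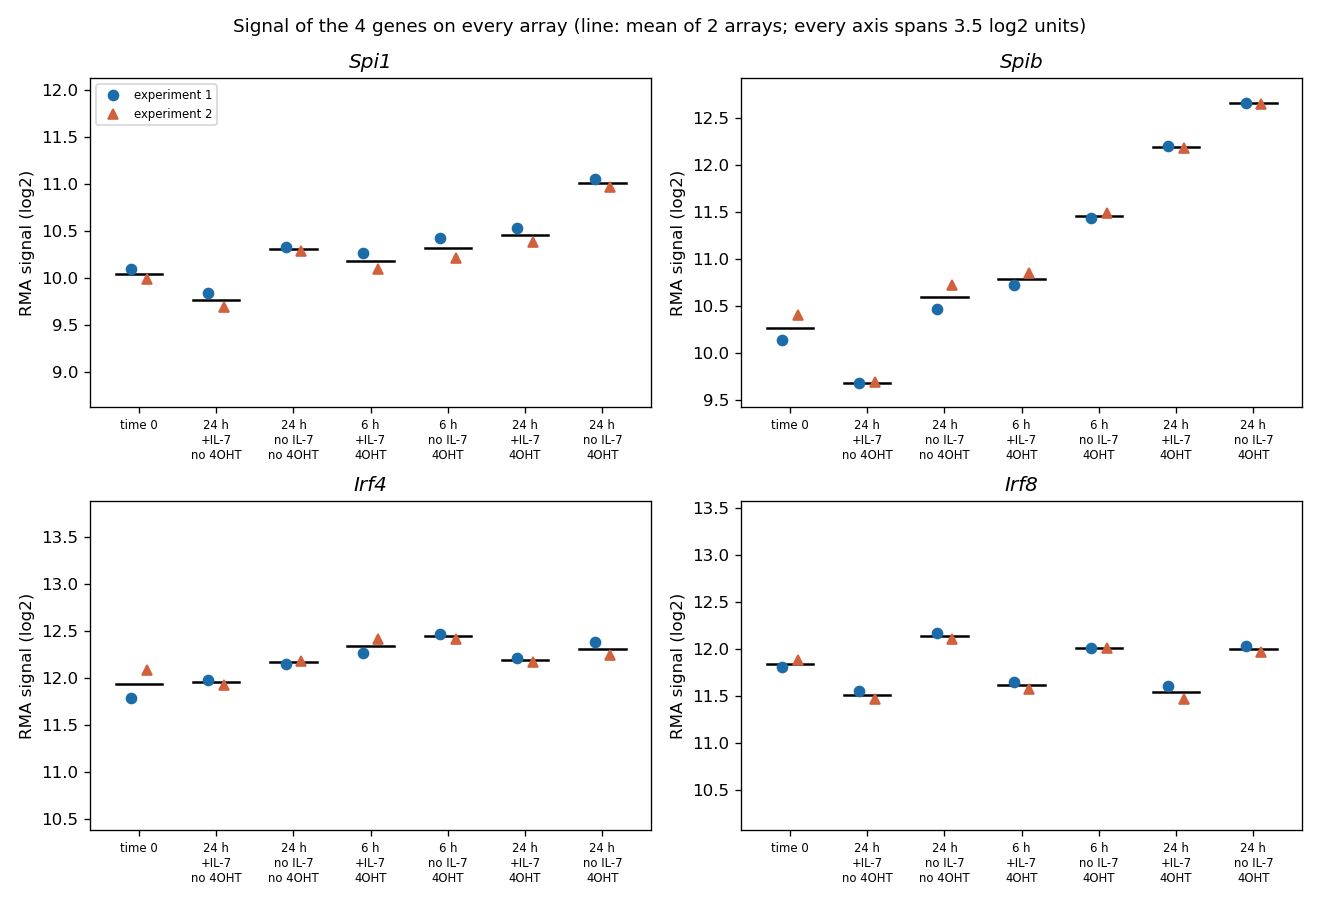
Log2 intensity of Spi1, Spib, Irf4 and Irf8 on each of the 14 arrays, by group, with a point for each experiment and a line at the group mean. Spib and Spi1 are highest at 24 h with 4OHT and no IL-7 (means 12.66 and 11.02), Irf8 is highest on the arrays without IL-7 (11.97 to 12.17), and Irf4 group means stay between 11.93 and 12.44.

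Spib rose by 2.51 ± 0.10 with 4OHT for 24 h in IL-7 (95% interval 2.29 to 2.72, 5.68-fold, limma adjusted p = 6.76e-08). Without IL-7 the 24 h response of Spib to 4OHT was 2.06 (1.85 to 2.27, 4.17-fold, adjusted p = 8.39e-08). The second response was smaller by 0.45 ± 0.14 on the log2 scale, but the interaction did not pass the test (-0.45, interval -0.75 to -0.15, adjusted p = 0.267). The direction of both responses was the same in the 2 experiments.

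IL-7 withdrawal raised Spib at both times. The difference was 0.68 at 6 h under 4OHT (limma adjusted p = 0.000559). At 24 h it was 0.91 without 4OHT (0.70 to 1.13, adjusted p = 6.26e-05) and 0.47 with 4OHT (0.25 to 0.68, adjusted p = 0.00412). Cells with both treatments exceeded cells with neither, that is with IL-7 alone, by 2.97, or 7.85-fold (adjusted p = 4.69e-09).

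With the treatments set against each other at 24 h, Spib was lower by 1.59 with IL-7 withdrawal alone than with 4OHT and IL-7 (difference -1.59, limma adjusted p = 7.64e-07). Spib also fell by 0.59 between time 0 and 24 h in IL-7 alone (adjusted p = 0.0102). That call was lost without the second time 0 array (-0.45, adjusted p = 0.103) and without the second array with IL-7 alone (-0.59, adjusted p = 0.0973). The 24 h 4OHT response read against time 0 was therefore smaller, at 1.92 (adjusted p = 2.00e-07).

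At 6 h with 4OHT and IL-7 Spib was 0.51 ± 0.10 above time 0 (limma adjusted p = 0.00525). The call was lost without the second 6 h array (0.45, adjusted p = 0.0512) and without the first time 0 array (0.38, adjusted p = 0.0554). From 6 to 24 h of 4OHT Spib rose further, by 1.41 with IL-7 (adjusted p = 4.95e-05) and by 1.20 without (adjusted p = 1.49e-05). Ordered by mean, Spib ran from 24 h with IL-7 alone (9.68) through time 0 (10.27), 24 h of IL-7 withdrawal alone (10.60), 6 h with 4OHT and IL-7 (10.78), 6 h with 4OHT and no IL-7 (11.46) and 24 h with 4OHT and IL-7 (12.19) to 24 h with 4OHT and no IL-7 (12.66). In that order only the steps from time 0 to 24 h of withdrawal alone (limma adjusted p = 0.0849) and from there to 6 h with 4OHT and IL-7 (adjusted p = 0.292) missed the test. The former passed with the experiment as a block (adjusted p = 0.0183).

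Spi1 was called in the same direction as Spib for both treatments at 24 h, with smaller differences for 4OHT and for withdrawal alone. It read 10.10 and 9.99 at time 0 and 9.84 and 9.69 after 24 h with IL-7 alone. With 4OHT and IL-7 for 24 h it read 10.53 and 10.39, and with withdrawal alone 10.33 and 10.29. The arrays with both treatments were the highest for Spi1, at 11.06 and 10.97, and did not overlap with any other group.

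At 6 h Spi1 read 10.27 and 10.10 with 4OHT and IL-7, and 10.43 and 10.21 with 4OHT and no IL-7. These arrays overlapped one another, and the 6 h withdrawal difference of 0.14 did not pass the test (interval -0.07 to 0.34, limma adjusted p = 0.486). Neither did the 0.14 between 6 h with 4OHT and IL-7 and time 0 (-0.07 to 0.35, adjusted p = 0.564).

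At 24 h Spi1 rose by 0.70 ± 0.10 with 4OHT in IL-7 (0.49 to 0.90, 1.62-fold, limma adjusted p = 0.000592) and by 0.71 with 4OHT without IL-7 (0.50 to 0.92, adjusted p = 0.000251). IL-7 withdrawal raised it by 0.54 without 4OHT (0.33 to 0.75, adjusted p = 0.00169) and by 0.55 with 4OHT (0.35 to 0.76, adjusted p = 0.00113). The interaction estimate for Spi1 was 0.01 ± 0.14, with an interval from -0.28 to 0.31 (adjusted p = 0.990). On the log2 scale the separate responses thus added up, within that interval, to the 1.25 between both treatments and neither (2.38-fold, adjusted p = 9.40e-07).

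The 2 treatments given singly left Spi1 at levels whose difference missed the test: cells with withdrawal alone differed from cells with 4OHT and IL-7 by -0.15 (limma adjusted p = 0.348). Ordered by mean, Spi1 ran from 9.77 at 24 h with IL-7 alone to 11.02 with both treatments, and only the last step, from 24 h with 4OHT and IL-7, passed the test. The lowest step, up to time 0, was 0.28 (adjusted p = 0.147). With the experiment as a block it passed (adjusted p = 0.0154).

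The block also changed calls in the time course of Spi1 under 4OHT. Without IL-7 Spi1 rose by 0.70 from 6 to 24 h (limma adjusted p = 0.000423), and with IL-7 the change was 0.28 (adjusted p = 0.162, and 0.0135 with the block). The withdrawal response under 4OHT was larger at 24 h than at 6 h by 0.42 ± 0.14, which missed the test (0.12 to 0.71, adjusted p = 0.122) and passed it with the block (adjusted p = 0.00931). Against time 0, Spi1 was 0.42 higher at 24 h with 4OHT and IL-7 (adjusted p = 0.0160) and 0.97 higher with both treatments (adjusted p = 1.08e-05).

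Irf8 was called for IL-7 withdrawal at both times and was not called for 4OHT at 24 h. It read 11.81 and 11.88 at time 0, 11.55 and 11.47 after 24 h with IL-7 alone, and 11.61 and 11.47 with 4OHT and IL-7. Without IL-7 it read 12.17 and 12.11 in the absence of 4OHT and 12.03 and 11.97 in its presence. At 6 h it read 11.65 and 11.58 with 4OHT and IL-7, and 12.01 on both arrays with 4OHT and no IL-7. The 6 arrays cultured without IL-7 lay above the 6 cultured with it for 6 or 24 h. The time 0 arrays, from cells also in IL-7, lay between, while arrays with and without 4OHT overlapped in IL-7.

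The window upstream of the first of 2 RefSeq starts of Irf8 (GRCm38.p6, chr8:120736108-120736357, plus strand) is shown because IL-7 signals through STAT5, with capitals at the letters TTCNNNGAA of a STAT5-type site.

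Irf8 promoter: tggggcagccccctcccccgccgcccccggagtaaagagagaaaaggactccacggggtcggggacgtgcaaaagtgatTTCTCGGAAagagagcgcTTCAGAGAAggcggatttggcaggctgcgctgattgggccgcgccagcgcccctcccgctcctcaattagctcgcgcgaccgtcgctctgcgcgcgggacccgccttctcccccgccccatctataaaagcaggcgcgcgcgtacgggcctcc

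Both matches lie on the plus strand, their first bases 171 and 153 bases upstream of the start. The same letters occur in 7.02% of the 32851 windows. The first window held none of the other 5 motifs. The window of the second start held no STAT5-type match and 1 Ikaros core TGGGAA, on the minus strand with its farthest base 242 bases upstream. The Irf4 window held none of the 6 motifs. No window was available for Spi1, which was therefore not searched. A match of letters is no evidence that a factor binds there.

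IL-7 withdrawal raised Irf8 by 0.40 ± 0.07 at 6 h under 4OHT (0.24 to 0.55, limma adjusted p = 0.00246). At 24 h the difference was 0.63 without 4OHT (0.47 to 0.78, 1.54-fold, adjusted p = 9.39e-05) and 0.46 with 4OHT (0.30 to 0.61, adjusted p = 0.000560). The 24 h response under 4OHT differed from that at 6 h by 0.06 (adjusted p = 0.873).

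The 4OHT responses of Irf8 at 24 h did not pass the test. They were 0.03 with IL-7 (-0.13 to 0.18, limma adjusted p = 0.857) and -0.14 without IL-7 (-0.30 to 0.01, adjusted p = 0.254), so either change is bounded by these intervals and not shown to be absent. The interaction of Irf8 was -0.17 (-0.39 to 0.05, adjusted p = 0.673). Set directly against each other, cells with withdrawal alone held more Irf8 than cells with 4OHT and IL-7, by 0.60 (adjusted p = 8.18e-05), the opposite sign to Spib.

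Irf8 also differed between time 0, when the cells were in IL-7, and later culture with IL-7. It fell by 0.33 over 24 h in IL-7 alone (limma adjusted p = 0.0308). The call was lost without the first array with IL-7 alone (-0.38, adjusted p = 0.0514), without its second array (-0.29, adjusted p = 0.240) and without the second time 0 array (-0.30, adjusted p = 0.239). At 6 h with 4OHT and IL-7 the difference from time 0 was -0.23 (-0.39 to -0.08), which missed the test (adjusted p = 0.0711) and passed it with the experiment as a block (adjusted p = 0.0278). Set against 24 h with IL-7 alone, the same 6 h arrays were higher by 0.10 (adjusted p = 0.459), so the sign for Irf8 depended on the reference. No step between neighbours in the order of Irf8 means, from 11.51 to 12.14, passed the test.

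Irf4 varied least. It read 11.78 and 12.08 at time 0, 11.98 and 11.92 after 24 h with IL-7 alone, and 12.21 and 12.17 with 4OHT and IL-7. Without IL-7 it read 12.15 and 12.18 in the absence of 4OHT and 12.38 and 12.24 in its presence. At 6 h the values were 12.26 and 12.41 with 4OHT and IL-7, and 12.47 and 12.41 with 4OHT and no IL-7. The lowest Irf4 arrays were the first at time 0 and both with IL-7 alone, and the time 0 arrays differed by more than any other pair of this gene.

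Irf4 was 0.41 ± 0.10 higher at 6 h with 4OHT and IL-7 than at time 0 (0.20 to 0.62, limma adjusted p = 0.0189). The call was lost without the first time 0 array, when the difference fell to 0.26 (adjusted p = 0.166), and without the second 6 h array (0.34, adjusted p = 0.142). Neither single treatment changed Irf4 past the threshold at 24 h. The 4OHT differences were 0.24 with IL-7 (0.03 to 0.45, adjusted p = 0.167) and 0.15 without (-0.06 to 0.36, adjusted p = 0.424). For IL-7 withdrawal the Irf4 differences were 0.21 in the absence of 4OHT (interval 0.00 to 0.43, adjusted p = 0.166) and 0.13 in its presence (-0.09 to 0.34, adjusted p = 0.407).

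Only the combination passed for Irf4 at 24 h, with 0.36 between both treatments and neither (0.15 to 0.57, limma adjusted p = 0.0107). It was lost without the second array with IL-7 alone (0.33, adjusted p = 0.0696) and without the first array with both treatments (0.29, adjusted p = 0.0931). The order of Irf4 means ran from 11.93 at time 0 to 12.44 at 6 h with 4OHT and no IL-7. No neighbours in it passed the test (adjusted p from 0.166 to 0.942).

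**Figure D2:**
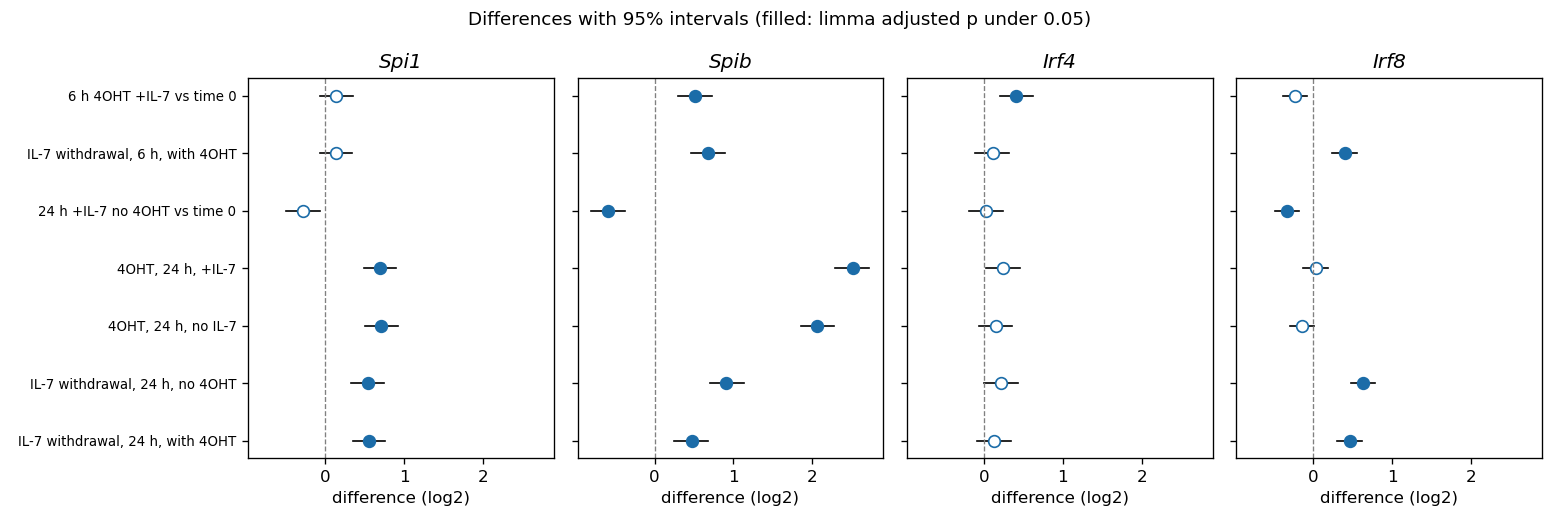
Log2 differences of the 4 genes in 7 comparisons, with 95% intervals from the limma fit and filled points for adjusted p under 0.05. The 24 h 4OHT differences of Spib (2.51 with IL-7) and Spi1 (0.70) have intervals above 0 and that of Irf8 (0.03) spans 0, while the 24 h withdrawal differences without 4OHT of Spib (0.91), Irf8 (0.63) and Spi1 (0.54) lie above 0.

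Counted by comparison, 4OHT for 24 h raised 2 of the 4 genes, Spi1 and Spib, both with IL-7 (where 5.22% of all genes were called higher and 3.94% lower) and without it (7.10% and 8.17%). IL-7 withdrawal for 24 h raised 3 of 4, Spi1, Spib and Irf8, without 4OHT (11.2% of all genes called higher and 8.78% lower) and with it (12.8% and 11.5%). At 6 h under 4OHT withdrawal raised 2 of 4, Spib and Irf8 (6.78% of all genes higher and 7.48% lower). All 4 were higher with both treatments than with neither, a comparison that called 18.1% of all genes higher.

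Against time 0, 2 of 4 were higher at 6 h with 4OHT and IL-7, Spib and Irf4 (3.92% of all genes), and 2 of 4 were lower at 24 h with IL-7 alone, Spib and Irf8 (2.36%). The genes behind these shares depended on single arrays: the 617 called in either direction at 24 h with IL-7 alone dropped to 39 without the second array of that group, and the 1826 called for 4OHT in IL-7 to 847 without the first array with 4OHT and IL-7. From 6 to 24 h of 4OHT, Spib rose with IL-7 (1.63%), and Spi1 and Spib rose without it (5.11%). The interaction at 24 h (0.687% of all genes called in either direction) and the change of the withdrawal response from 6 to 24 h (5.01%) called none of the 4 by limma. At an unadjusted p under 0.05 the interaction counted only Spib, and the change over time only Spi1. Comparisons that share arrays, such as the 24 h ones, are not independent of one another.

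Genes described as targets of PU.1 and Spi-B in B cells were mostly higher where called, in the 24 h comparisons in which Spi1 and Spib rose. This list, like those below, was chosen with earlier results of these data known, so its counts are a description. With 4OHT for 24 h in IL-7, 5.22% of all genes were called higher and 3.94% lower. Of 15 measured members of the list, 9 rose and 0 fell, with a median difference of 0.57 against -0.04 over all genes. They were Fcgr2b, the inhibitory Fc receptor of B cells, Ptprc (the CD45 phosphatase), the receptor chains Cd79a and Cd79b, the signalling proteins Syk, Btk and Blnk, and the surface proteins Cd22 and Ms4a1. Ms4a1 lay below 7.33, the median of all values, in every group. Without IL-7, 7.10% of all genes were called higher under 4OHT and 8.17% lower. Of the list, 9 rose and 2 fell (median 0.44 against 0.01), the latter Igll1, a surrogate light chain component, and the transcription factor Mef2c.

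Fcgr2b had the largest 4OHT response of the list. Its mean was 9.44 ± 0.18 (SD) at time 0, 9.22 ± 0.36 at 24 h with IL-7 alone and 11.13 ± 0.19 with 4OHT and IL-7, and 11.32 ± 0.12 with both treatments. The 4OHT difference was 1.90 ± 0.17 with IL-7 (limma adjusted p = 2.01e-05) and 1.73 without (adjusted p = 1.93e-05). Like Spib, Fcgr2b was thus high in both 24 h groups with 4OHT. Its withdrawal differences at 24 h were smaller and missed the test, at 0.36 without 4OHT (adjusted p = 0.175, and 0.00462 with the experiment as a block) and 0.19 with 4OHT (adjusted p = 0.476). At 6 h under 4OHT, Fcgr2b was called higher with withdrawal, with means of 10.00 with IL-7 and 10.73 without it.

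Ptprc rose by 0.91 ± 0.10 with 4OHT in IL-7 (limma adjusted p = 0.000102) and Cd79b by 0.51 ± 0.06 (adjusted p = 0.000248). Without IL-7, Syk rose by 0.95 under 4OHT (adjusted p = 4.53e-05) and Cd79a by 0.77 (adjusted p = 7.25e-05). These genes sit in or next to the pre-B receptor signalling pathway, in which Syk phosphorylates the adaptor Blnk.

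IL-7 withdrawal for 24 h raised 8 of the 15 targets without 4OHT (median 0.35 against -0.01) and 9 of 15 with 4OHT (0.35 against 0.06), and 0 fell in either. Of all genes, 11.2% were called higher without 4OHT and 12.8% with it, and 6.78% for withdrawal at 6 h under 4OHT. Blnk rose by 0.76 ± 0.09 without 4OHT (limma adjusted p = 0.000138) and by 0.55 with it (adjusted p = 0.000916), and Syk by 0.35 (adjusted p = 0.0295) and 0.59 (adjusted p = 0.00123). The count of 8 dropped to 4 without the second array with IL-7 alone or the second with withdrawal alone, and the count of 9 dropped to 5 without the second array with 4OHT and IL-7. At 6 h under 4OHT, withdrawal raised 5 of 15, or 8 with the experiment as a block, and as few as 2 without the first 6 h array lacking IL-7. The interaction called 0 of the 15 by limma, with 2 at an unadjusted p under 0.05.

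**Figure D3:**
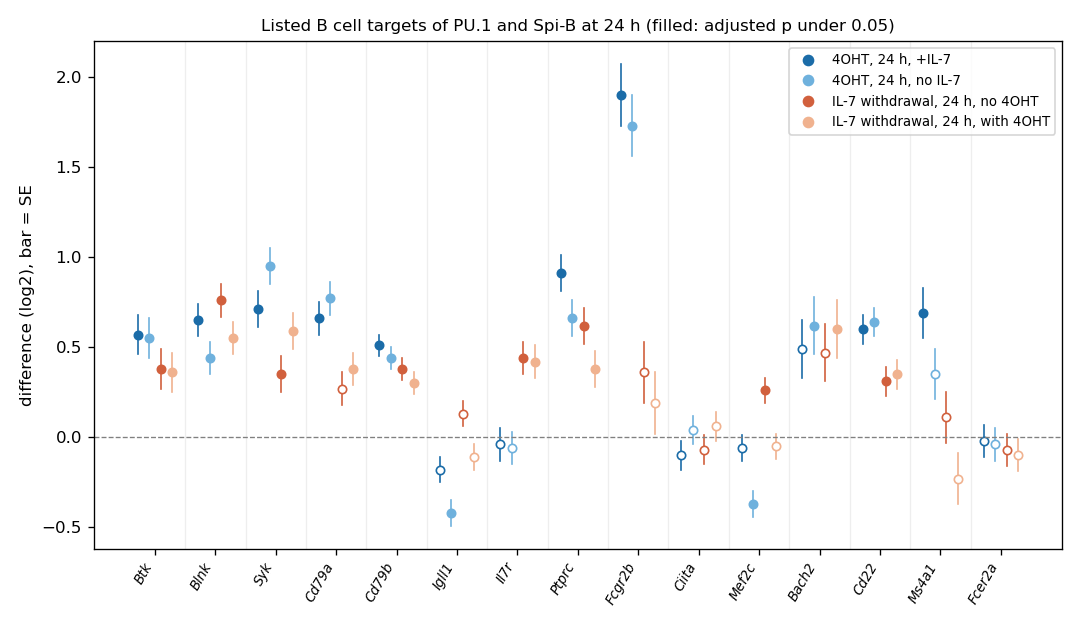
Log2 differences of the measured PU.1 and Spi-B target genes at 24 h for 4OHT and for IL-7 withdrawal, each with and without the other treatment, as points with SE bars, filled where the adjusted p was under 0.05. Most lie above 0 for 4OHT with IL-7 (median 0.57), and Fcgr2b (1.90) stands highest.

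Of genes described as acting under IRF4 and IRF8 in pre-B cells, 9 of 15 listed were measured. In every group 5 of the 9 lay below 7.33, the median of all values, such as Cd2 and Il2ra. The 4 above it were Ikzf1, Ikzf3, Cxcr4 and Bcl6. By limma 0 of the 9 passed with 4OHT in IL-7 (2 at an unadjusted p under 0.05), where 5.22% of all genes were called higher and 3.94% lower. With 4OHT without IL-7 2 fell, Bcl6 (-0.43) and Prdm1 (-0.46), where 8.17% of all genes were called lower. Prdm1 was also among the 5 below 7.33 in every group. Bcl6 lost this call without the second array with both treatments (-0.34, limma adjusted p = 0.0541), and Prdm1 without the first with withdrawal alone (-0.35, adjusted p = 0.0534). Withdrawal at 6 h under 4OHT raised 2 of the 9, Bcl6 and Ikzf3, where 6.78% of all genes were called higher, and that count depended on single arrays. Bcl6 means at 6 h under 4OHT were 7.73 with IL-7 and 10.20 without it, against 10.10 at time 0. For withdrawal at 24 h, 11.2% of all genes were called higher without 4OHT and 12.8% with it. IL-7 withdrawal without 4OHT raised 4 of the 9, among them Bcl6, a transcriptional repressor of pre-B and germinal centre cells, by 1.65 ± 0.09 (limma adjusted p = 2.28e-06), and Ikzf3 (Aiolos, an Ikaros relative) by 0.56 ± 0.10 (adjusted p = 0.00201). The count of 4 dropped to 2 without the first or the second array with IL-7 alone, or without the first with withdrawal alone. Under 4OHT, withdrawal raised Bcl6 by 1.20 (adjusted p = 2.00e-06) and Ikzf1 by 0.25 (adjusted p = 0.0239), and Ikzf1 lost its call without the first or the second array with 4OHT and IL-7 (adjusted p = 0.109 and 0.0827) or the second array with both treatments (adjusted p = 0.143). Ikzf1 encodes Ikaros itself, which the line lacks, and any transcript of the cells' own gene was not separated here from that of the fusion.

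Among 18 other ETS factors, 4OHT in IL-7 raised 2 and lowered 4 (5.22% of all genes were called higher and 3.94% lower). Without IL-7 it raised 4 and lowered 4 (7.10% and 8.17% of all genes). Elk3, a ternary complex factor, fell by 1.06 ± 0.12 with 4OHT in IL-7 (limma adjusted p = 0.000198) and by 0.93 without (adjusted p = 0.000241), and Etv6, a repressor of the family, fell by 0.76 with 4OHT without IL-7 (adjusted p = 3.50e-05). Elf1 rose by 0.46 with 4OHT in IL-7 (adjusted p = 0.000798). Unlike Spi1 and Spib, the other ETS genes called with 4OHT included some in each direction.

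IL-7 withdrawal raised 6 of the 18 ETS genes without 4OHT (11.2% of all genes higher, 8.78% lower) and 7 with it (12.8% and 11.5%), and lowered 0 and 1. Elk3 rose in both, by 0.79 (limma adjusted p = 0.000851) and 0.93 (adjusted p = 0.000196), opposite to its 4OHT response. These counts were sensitive to single arrays: the 6 dropped to 3 without the second array with IL-7 alone or the second with withdrawal alone, the 7 dropped to 3 without the second array with 4OHT and IL-7, and the 4 that fell with 4OHT in IL-7 dropped to 1 without the first array with 4OHT and IL-7 or the second with IL-7 alone. The 2 that rose with 4OHT in IL-7 dropped to 1 without any single array of that comparison, and the 4 without IL-7 dropped to 2 without the first array with withdrawal alone. The 1 that fell with withdrawal under 4OHT, Erf, lost its call without any single array of that comparison.

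Of 6 other IRF genes measured, 4OHT raised 2 both with and without IL-7, Irf1, an activator of interferon-responsive genes, and Irf5. Of all genes, 5.22% were called higher for 4OHT with IL-7 and 7.10% without it. Irf1 rose by 1.30 ± 0.15 (limma adjusted p = 0.000190) and 1.03 (adjusted p = 0.000507), and Irf5 by 0.43 (adjusted p = 0.0189) and 0.74 (adjusted p = 0.000305). The 0.43 of Irf5 was lost without the first array with 4OHT and IL-7 (0.30, adjusted p = 0.235) or the second with IL-7 alone (0.35, adjusted p = 0.175). Irf1 mean values were 8.43 ± 0.26 (SD) at time 0 and 9.63 ± 0.15 at 6 h with 4OHT and IL-7, and every group with 4OHT had a higher Irf1 mean than every group without.

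Withdrawal of IL-7 for 24 h raised 2 of these 6 IRF genes without 4OHT, Irf2 and Irf3 (11.2% of all genes called higher). With 4OHT it raised 3, Irf2, Irf3 and Irf5 (12.8%). With the experiment as a block the counts were 5 and 5. The count of 2 dropped to 1 without the first or the second array with IL-7 alone or the second with withdrawal alone, and the 3 dropped to 1 without the first array with 4OHT and IL-7. Irf2 rose by 0.39 (limma adjusted p = 0.00493) and 0.34 (adjusted p = 0.00957). The second Irf2 call was lost without the first array with 4OHT and IL-7 (0.33). Irf3 lost its call without 4OHT when any single array of that comparison was left out (0.18 to 0.28) and with renewed quantile normalization (0.20). Under 4OHT it lost its call without the first or second array with 4OHT and IL-7 or the second with both treatments.

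**Figure D4:**
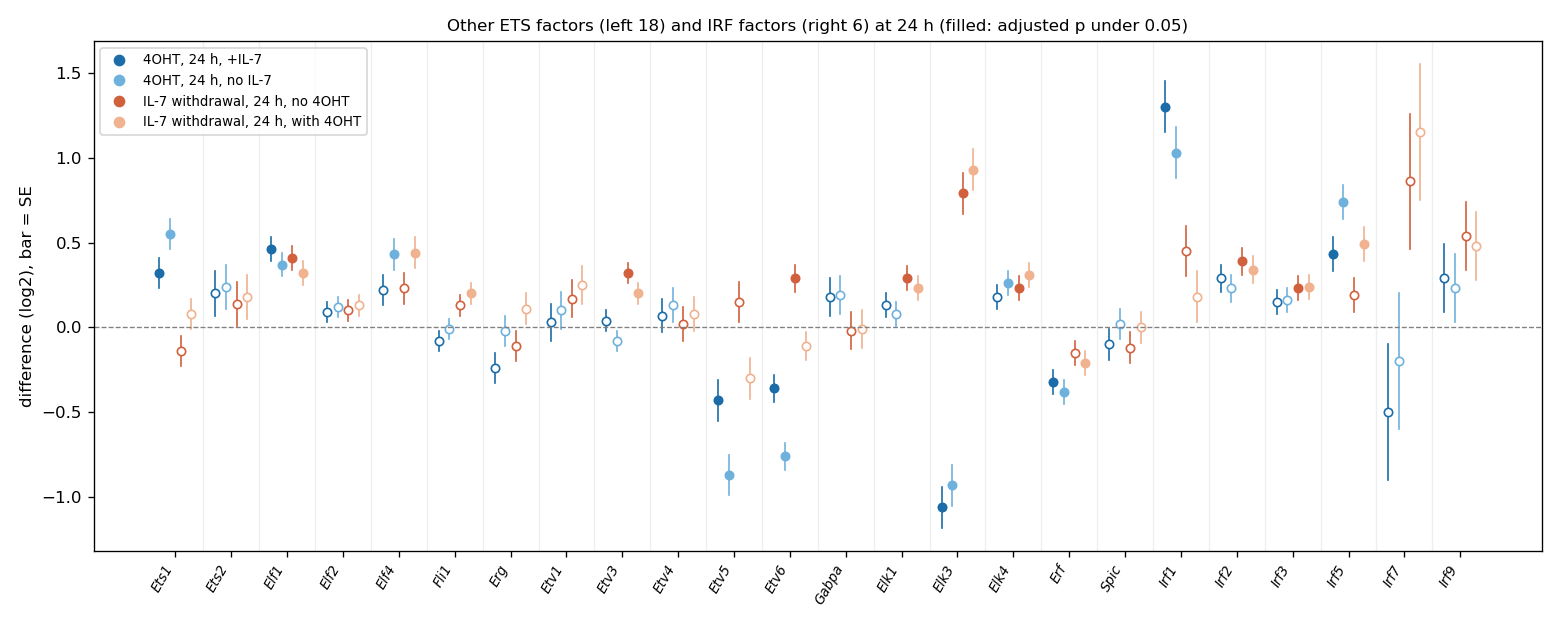
Log2 differences with SE bars of 18 other ETS genes (left) and 6 other IRF genes (right) at 24 h, for 4OHT and for IL-7 withdrawal, each with and without the other treatment, filled where the adjusted p was under 0.05. For 4OHT with IL-7, Irf1 (1.30) is highest and Elk3 (-1.06) lowest, and Elk3 lies above 0 for withdrawal (0.79 and 0.93).

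The BATF and JUN factors pair with IRF4 and IRF8 at AP-1-IRF elements. Of 6, 4OHT in IL-7 raised Jund by 0.82 ± 0.10 (limma adjusted p = 0.000200) and lowered Batf2. Withdrawal without 4OHT raised 2, Jund (0.65, adjusted p = 0.000552) and Jun, and lowered Batf by 0.60 (adjusted p = 0.00167). Without IL-7, 4OHT raised 3, among them Batf (0.62, adjusted p = 0.00131), and lowered Jun. Of all genes, 4OHT called 5.22% higher and 3.94% lower in IL-7, and 7.10% and 8.17% without it. Withdrawal called 11.2% and 8.78% without 4OHT, and 12.8% and 11.5% with it. The withdrawal count under 4OHT was 2 (Jund and Jun), or 4 with the experiment as a block, and 1 without the first array with both treatments, when Jund lost its call (0.33, adjusted p = 0.0527). Jun lost its call without the second array with both treatments (0.56, adjusted p = 0.0654). The Batf2 call was lost without the first array with 4OHT and IL-7 (-0.39, adjusted p = 0.213) or the second with IL-7 alone (-0.50, adjusted p = 0.167). The fall of Jun with 4OHT was lost without the first array with both treatments (-0.55, adjusted p = 0.0961) and without the first or second with withdrawal alone (-0.66 and -0.62, adjusted p = 0.0651 and 0.0771).

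Among 15 measured genes described as regulators of Spi1, Irf4 or Irf8, 4OHT in IL-7 raised 7 and lowered 2 (5.22% of all genes higher, 3.94% lower). Without IL-7 it raised 6 and lowered 2 (7.10% and 8.17% of all genes). Foxo1, a forkhead factor restrained by growth factor signals, rose by 0.82 ± 0.12 with IL-7 (limma adjusted p = 0.00117) and 1.22 without (adjusted p = 2.66e-05), and Rel, an NF-kappaB subunit, by 0.86 (adjusted p = 0.000256) and 0.87 (adjusted p = 0.000102). Stat5a, a transducer of the IL-7 signal, fell by 0.80 with 4OHT without IL-7 (adjusted p = 4.07e-05). At 6 h under 4OHT, withdrawal raised 1 of the 15, Gfi1b, a zinc finger repressor, by 1.17 ± 0.11 (adjusted p = 2.47e-05), or 3 with the experiment as a block. By limma without the block, 6.78% of all genes were called higher there.

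IL-7 withdrawal raised 9 of the 15 regulators without 4OHT and 6 with it (9 with the experiment as a block), and lowered 1 in each, Cbfb. Of all genes, 11.2% were called higher and 8.78% lower without 4OHT, and 12.8% and 11.5% with it. Stat3 rose by 0.60 (limma adjusted p = 0.000268) and 0.55 (adjusted p = 0.000337). The 9 dropped to 5 without the second array with IL-7 alone, and the 7 under 4OHT in IL-7 dropped to 4 without the first array with 4OHT and IL-7 or the second with IL-7 alone. Of the 2 that fell with 4OHT, Runx1 and Stat5a, 1 was called without the first or second array with 4OHT and IL-7 or the second with IL-7 alone, and, in the absence of IL-7, without the first with both treatments or the second with withdrawal alone.

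PU.1 and IRF8 are best known for driving myeloid genes, and 14 such genes were measured. In every group 9 of them lay below the median of all values, 7.33, among them Csf1r (means from 6.05 to 6.20), Csf3r, Mpo, Elane and Lyz2. The other 5 lay above it in every group: Csf2ra (means from 9.63 to 10.21), Ctss (8.50 to 9.34), Cd68 (8.28 to 9.03), Ncf1 (7.40 to 8.49) and Itgam (7.41 to 8.25). The mean over the list ran from 6.88 to 7.18 over all arrays, highest on the arrays with both treatments (7.15 and 7.18). With 4OHT in IL-7, 2 of 14 rose, Ncf1 (0.66) and Ctss (0.84), where 5.22% of all genes were called higher. With withdrawal without 4OHT 2 of 14 rose, Csf2ra (0.50) and Itgam (0.60), where 11.2% of all genes were called higher. The list medians were -0.01 and 0.01, against -0.04 and -0.01 over all genes. Ncf1 and Ctss were also the 2 called for 4OHT without IL-7 (7.10% of all genes higher), and Csf2ra and Itgam the 2 called for withdrawal under 4OHT (12.8%). For withdrawal at 6 h under 4OHT, 7.48% of all genes were called lower. Ncf1 lost its call without the first array with 4OHT and IL-7 (0.40, limma adjusted p = 0.175) or the first with IL-7 alone (0.56, adjusted p = 0.0858). Itgam lost its call without the first or second array with IL-7 alone (0.58 and 0.61, adjusted p = 0.0895 and 0.0886) or the second with withdrawal alone (0.46, adjusted p = 0.199). Withdrawal at 6 h under 4OHT lowered 2, Cd68 and Ctss, or 1 without the first array of either 6 h group or the second with IL-7.

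Of the B lineage markers, 7 of 8 were measured and all 7 lay above the median of all values in every group. None of 5 T cell and none of 4 NK cell markers did so in every group. Of 8 dendritic cell markers 2 did, of 5 plasma cell markers 2, of 2 erythroid markers 1, and of 4 stromal markers 3, all collagens. The mean B lineage level per array was 12.23 to 12.24 at 24 h with IL-7 alone, 12.52 to 12.54 with 4OHT and IL-7, 12.58 to 12.66 with withdrawal alone and 12.75 with both treatments. Of the 7, 5 were higher in each of the 4 comparisons of 1 treatment at 24 h, where the shares of all genes called are those given above. Vpreb1, a surrogate light chain component, was lower with 4OHT in IL-7 (-0.59) and without it (-1.34) and with withdrawal under 4OHT (-0.46), and higher with withdrawal alone (0.29), while Igll1 was lower with 4OHT without IL-7 (-0.42). The list mean was lowest, like Spi1 and Spib, with IL-7 alone and highest with both treatments, but it was higher with withdrawal alone than with 4OHT and IL-7, opposite to Spib. Of these markers, Cd79a, Cd79b, Igll1 and Blnk are also in the target list above, and Pax5 and Ebf1 in the regulator list. The lists are thus not independent of one another. The part of these markers in the results for the 4 genes was not tested.

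Of the 28 markers of other cell types, those called at 24 h were the following. For 4OHT in IL-7, 1 of 5 T cell, 1 of 4 NK cell and 1 of 5 plasma cell markers were lower (Cd3e, Nkg7 and Sdc1), and none of the dendritic cell, erythroid or stromal markers was called, against 3.94% of all genes lower. Sdc1 (-0.40) lost its call without the first or second array with 4OHT and IL-7 or the second with IL-7 alone, and Cd3e (-0.29) without the first with 4OHT and IL-7 or either with IL-7 alone. For 4OHT without IL-7, 7.10% of all genes were called higher and 8.17% lower. There 1 NK cell marker, Klrb1c, was higher by 1.82 ± 0.33 (limma adjusted p = 0.00219). Lower were 2 plasma cell markers (Prdm1 and Sdc1) and 1 dendritic cell marker (Bst2), of which Sdc1 (-0.41) lost its call without any single array of the comparison.

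For IL-7 withdrawal at 24 h, 11.2% of all genes were called higher and 8.78% lower without 4OHT, and 12.8% and 11.5% with it. Without 4OHT, Nkg7 (-1.24), Sdc1 (-0.78) and Bst2 (-0.48) were lower. Prdm1 (0.31), which lay below the median of all values in every group, was higher. Bst2 and Prdm1 lost these calls without the first or second array with IL-7 alone or the first with withdrawal alone. Under 4OHT, Sdc1 (-0.79) and Bst2 (-0.74) were lower, and Klrb1c (1.23, limma adjusted p = 0.0169) and Xbp1 (0.40, adjusted p = 0.0466) were higher. Klrb1c lost that call without the second array with 4OHT and IL-7 (0.83, adjusted p = 0.151) or the first with both treatments (0.62, adjusted p = 0.143), and Xbp1 lost its call without any single array of the comparison. No T cell, erythroid or stromal marker was called for withdrawal at 24 h, and the part of these markers in the results was not tested.

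The genes whose profile over the 14 arrays was most like that of each member were found by Pearson's r among 10293 genes whose highest group mean was above the median of all values. For Spib they were Neil1 (r = 0.983), a DNA glycosylase, Siglecg (0.981), an inhibitory B cell lectin, Rubcnl (0.978), Serinc5 (0.976) and Tfeb (0.976). For Spi1 they were Slc25a51 (0.979), Mknk1 (0.974), Rhoh (0.973), Zfp296 (0.972) and Polm (0.971), the last a DNA polymerase of immunoglobulin gene rearrangement. For Irf8 they were Gab1 (0.977), Mgrn1 (0.976), Cxxc5 (0.968), Ypel2 (0.968) and Usp8 (0.960). The closest genes to Irf4 were less close, led by Camk2b (0.923) and Cpt1a (0.918) and ending with Acot2 (0.900). The arrays share 2 experiments and 7 groups, so these values are a description of 14 points that are not independent.

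The closest genes to Spib and to Irf8 had these differences. With 4OHT in IL-7, Neil1 rose by 1.78 ± 0.11 (limma adjusted p = 1.75e-06) and Siglecg by 2.07 ± 0.18 (adjusted p = 2.12e-05), while Gab1 differed by -0.03 ± 0.10 (adjusted p = 0.873). With IL-7 withdrawal without 4OHT, Gab1 rose by 0.80 (adjusted p = 0.000175) and Neil1 by 0.73 (adjusted p = 0.000771). They were chosen for their likeness to the members, so these values support nothing further.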

How the data were processed

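RNA of 14 samples (7 groups, 2 experiments each) was hybridised to 1-colour Affymetrix mouse arrays. Per the submitters' processing notes, the authors used Affymetrix Expression Console 1.1 with RMA, which background-corrects, quantile-normalizes and summarises probes, so the deposited values are log2 intensities; the genome build is not given in the sources used here. Of 35556 probe sets, 21789 carried 1 gene symbol in the platform annotation, 1621 several and 12146 were not listed; probe sets with 1 symbol gave 19938 genes by their brightest probe set, and 91 symbols had no RefSeq entry. No symbol needed updating. The members and gene lists were chosen with earlier results of these data known.

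One linear model with a mean per group was fitted to all arrays with limma 3.58.1 in R 4.3.3 (lmFit, eBayes; 7 residual and 4.83 prior degrees of freedom), with 12 comparisons, Benjamini-Hochberg adjustment over 19938 genes and 95% intervals. The code was tested on simulated data. List genes named in the text are the up to 3 with the smallest adjusted p in a comparison, or are given where a count is explained. Likeness was ranked by Pearson's r, leaving out predicted genes, immunoglobulin and T cell receptor segments, microRNAs and odorant receptors. With 2 arrays a group, the number of arrays limits the precision. The labels call exp1 and exp2 independent experiments, and arrays of the same experiment deviated together from the means of their groups in all 21 pairs of groups (r from 0.124 to 0.631, median 0.392), so the number pairs the arrays; the fit with the experiment as a block was an alternative. Others were leaving out each array, arrays of the compared groups only, renewed quantile normalization, no dim genes, eBayes with trend and robust, the mean of all probe sets, and another reference at 6 h. Promoter windows came from RefSeq (GRCm38.p6), matched by symbol.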

Additional observations from a re-analysis of the deposited data

How the results depend on the processing

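Of 48 results for the 4 genes, 23 passed the threshold. Leaving out single arrays kept 81 of the 92 resulting values of these past it, the other settings kept 136 of 140, and no called result changed sign. With only the arrays of the compared groups, the calls lost were those of Spib at 6 h with 4OHT and IL-7 (0.51, limma adjusted p = 0.0653) and at 24 h with IL-7 alone (-0.59, 0.0585), both against time 0, of Irf4 at 6 h (0.41, 0.149) and of Irf8 at 24 h with IL-7 alone (-0.33, 0.168). With the experiment as a replicate block, 4 more passed: Spi1 at 24 h with IL-7 alone (-0.28), from 6 to 24 h with 4OHT and IL-7 (0.28) and in the change of the withdrawal response (0.42), and Irf8 at 6 h (-0.23). The block changed no other call among the 48 results. Irf8 at 6 h also passed with trend (-0.23, adjusted p = 0.0460) and without dim genes (-0.23, 0.0451). With 24 h in IL-7 alone as the reference for 6 h, Spi1 passed (0.42, adjusted p = 0.0198) and Irf8 had the other sign (0.10).

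Leaving out single arrays gave, at 6 h against time 0, 0.38 to 0.64 for Spib and 0.26 to 0.56 for Irf4, and at 24 h with IL-7 alone -0.72 to -0.45 for Spib, -0.38 to -0.29 for Irf8 and -0.13 to 0.17 for Irf4. Both treatments against neither gave 0.29 to 0.43 for Irf4. Other uncalled values that crossed 0, as that of Irf4 at 24 h with IL-7 alone did, were those of Irf4 (-0.05 to 0.10) and Irf8 (-0.01 to 0.13) for the change of the withdrawal response, Irf8 from 6 to 24 h without IL-7 (-0.05 to 0.01) and with 4OHT in IL-7 (-0.04 to 0.10), and the interaction of Spi1 (-0.06 to 0.09). The cause of these shifts was not tested.

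The block raised the number of all genes called from 1748 to 2999 at 6 h against time 0, from 617 to 2056 at 24 h with IL-7 alone, from 1826 to 3324 for 4OHT in IL-7, from 137 to 449 for the interaction, from 729 to 1819 and 2377 to 3727 for 24 against 6 h with and without IL-7, and from 998 to 1972 for the change of the withdrawal response. Without single arrays, the lowest counts were 1067, 39, 847, 50, 207, 1315 and 591 in that order, and 1490 of 2844, 1841 of 3045 and 2279 of 3982 for withdrawal at 6 h, 4OHT without IL-7 and withdrawal without 4OHT. Compared arrays only gave 884, 128 and 1494 for 6 h, 24 h with IL-7 alone, and 24 against 6 h without IL-7. Renewed normalization moved the median of all genes by at most -0.076.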
